A study of Mus musculus with 8 samples.

Results

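The genes described here encode the proteins of the cytosolic ribosome. Their rows were found by name in the deposited gene tables: Rpl or Rps followed by a digit, or Rpsa, Rplp0, Rplp1 or Rplp2, leaving out the kinases whose names start with Rps6k and rows named as pseudogenes. Of 86 such rows, 82 reached 1 FPKM (fragments scaled by transcript length and by the size of the library) in at least 2 of the 8 libraries, and these 82 were followed among 9782 rows that passed the same filter out of 23746. They comprised 34 rows named for the small subunit and 48 named for the large subunit. The 4 rows under the filter were Rpl10l, Rpl39l, Rpl3l and Rpl26. The name rule also took a few genes that are not standard subunits, such as Rps19bp1, whose product binds Rps19, and the paralogs Rpl22l1, Rpl7l1, Rps27l and Rpl36al.

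The libraries were RNA-seq of CD8+ T cells that bound the AH1 tetramer, which carries a tumour antigen peptide, sorted from BALB/c mice. The 4 groups were wild-type stem-like, wild-type term-diff, Cd69-/- stem-like and Cd69-/- term-diff cells, with 2 libraries each. Term-diff is how the labels' "term diff" is written here, and Cd69-/- cells are called Cd69-deficient. Nothing in the labels says which tumour was used, how the sort was gated, how many mice were taken or whether the libraries are from separate mice, so p-values measure the spread between these libraries, which may be technical.

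Ribosomes have a small subunit, which reads the mRNA, and a large subunit, which joins amino acids and feeds the chain into an exit tunnel. Most ribosomal proteins are needed in equal amounts, and their genes are among the most strongly expressed in growing cells. Many of these mRNAs start with a C followed by a run of pyrimidines, the terminal oligopyrimidine tract, through which mTOR signalling controls their translation. T cells raise ribosome production when they are activated and divide.

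Cd69, the deleted gene, was at 10.4 to 23.4 FPKM in the 4 wild-type libraries and at 2.21 to 3.69 FPKM in the 4 Cd69-deficient libraries. The fragments implied by the width of each deposited confidence interval summed to 2055402 to 2591061 per library. Small RNA rows held 56 to 84.4% of the summed FPKM of a library. The summed level of 9 CD8 T cell markers was 1010 to 1169 FPKM in wild-type stem-like, 1006 to 1092 in wild-type term-diff, 1184 to 1229 in Cd69-deficient stem-like and 1331 to 1503 in Cd69-deficient term-diff. That of B cell and neutrophil markers was at most 0.889 and 1.19 FPKM. Summed myeloid markers were at 7.79 to 9.13 FPKM in the stem-like libraries of both genotypes, 32.1 to 32.4 FPKM in wild-type term-diff and 19.8 to 26.7 FPKM in Cd69-deficient term-diff. Most of the term-diff sum was Fcer1g, at 0.52 to 1.53 FPKM in stem-like and 17.1 to 29.8 in term-diff libraries, while Lyz2 and Csf1r, defining markers of myeloid cells, reached at most 3.11 and 0.418 FPKM in any library. Summed tumour and stroma markers were at 27.5 to 34.7 FPKM in stem-like and 8.51 to 11.4 FPKM in term-diff libraries, nearly all of it from Igfbp7 and Pecam1, with Epcam, Col1a1, Col3a1 and Krt8 at 0.715 FPKM or less. The part of these markers' cell types in the values below was not tested.

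The start of a ribosomal protein gene can show features the family is known for, so 6 stretches are printed, from RefSeq on GRCm38.p6. Rpl22 and Rpl22l1 were the members that passed the test in wild type. Rpl34 and Rpl35 were among the members with the highest levels, and Rps13 and Rpl7l1 were among the few members whose level was not lower in wild-type term-diff cells. Each stretch has 60 bases before the RefSeq start and 25 bases from it. Capitals mark, on either strand, the motif CTTTCC and its relative CTTTTC, the ETS core CCGGAAG, the YY1 core AAGATGG and the box TATAAA, and also a C with at least 4 pyrimidines after it near the start. A motif that runs past the end of the stretch is marked as far as it is printed. The Rps13 stretch holds no marked base, and those of Rpl22 and Rpl7l1 hold no marked tract near the start.
Rpl22 (chr4:152325666-152325750, plus strand): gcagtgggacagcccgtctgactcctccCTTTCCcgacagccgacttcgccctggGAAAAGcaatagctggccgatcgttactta
Rpl22l1 (chr3:28805448-28805532, plus strand): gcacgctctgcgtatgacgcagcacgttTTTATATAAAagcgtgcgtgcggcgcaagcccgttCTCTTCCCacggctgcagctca
Rpl34 (chr3:130730313-130730397, minus strand): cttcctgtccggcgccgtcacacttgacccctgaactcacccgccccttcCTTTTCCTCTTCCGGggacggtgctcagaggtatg
Rpl35 (chr2:39005107-39005191, minus strand): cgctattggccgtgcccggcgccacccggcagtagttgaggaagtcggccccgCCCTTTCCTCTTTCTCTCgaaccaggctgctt
Rps13 (chr7:116334166-116334250, minus strand): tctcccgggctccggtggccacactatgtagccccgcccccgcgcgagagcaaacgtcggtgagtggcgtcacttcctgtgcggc
Rpl7l1 (chr17:46782632-46782716, minus strand): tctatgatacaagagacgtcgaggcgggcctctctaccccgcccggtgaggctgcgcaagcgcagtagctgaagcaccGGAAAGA

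RefSeq promoter windows were matched for 60 of the 82 members and for 6889 of the genes that passed the filter, members included. A C followed by 4 pyrimidines lay exactly at the annotated start of 12 of 60 members (20%), against 2.41% of all windows. Within 10 bases of the start it lay in 33 of 60 members (55%), against 32.2%. In the window of 250 bases before to 50 bases after the start, CTTTCC was in 48.3% of members against 26% of all windows. CTTTTC, which can overlap it, was in 26.7% against 18.9%. CCGGAAG was in 38.3% against 21.8%. AAGATGG was in 15% against 8.1%, and TATAAA in 10% against 6.65%. Members were also split by the C with 4 pyrimidines within 10 bases of the start. The median log2 difference between wild-type subsets was -0.33 for the 33 members with this tract and -0.31 for the 27 without. Between genotypes in term-diff cells it was 0.43 for both. The Rpl22 start in RefSeq lay 152 bases before the start of its deposited locus, so its printed stretch may not hold the start used by these cells.

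The members filled much of the top of the expression range. Of the 82, 59 had a mean over the 8 libraries of at least 100 FPKM, 15 lay between 20 and 100 FPKM, and 8 were below 20 FPKM. Between 42 and 54 of the 100 highest rows in each library were members. Rplp1, part of the acidic stalk that recruits elongation factors, had the highest mean at 972 FPKM. Rpl34, at 717 FPKM, Rpl35, at 657, and Rpl13a, at 563, also had means near the top. The lowest mean, 0.557 FPKM, was that of Rps4y2, an Rps4x relative, which reached 1 FPKM in 2 libraries only. The GENCODE annotation lists the gene at its locus, Rps4l, as a transcribed processed pseudogene. Then came Rps19bp1 at 3.86, Rpl7l1 at 6.37, Rpl30 at 7.59 and Rps27l at 10.1. Members with much sequence in common with processed pseudogenes can gain or lose fragments to them, and how reads with several matches were counted is not given in the sources used here.

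As a group, the members had their lowest mean level in wild-type term-diff cells. Their summed level was 20370 and 17460 FPKM for the wild-type stem-like pair of libraries and 16800 and 13060 FPKM for the wild-type term-diff pair. In Cd69-deficient cells it was 16570 and 19270 FPKM in stem-like against 19390 and 20650 FPKM in term-diff. The second wild-type term-diff library lay below every other library. The wild-type subsets did not overlap, and neither did the term-diff libraries of the 2 genotypes, while the stem-like libraries of the 2 genotypes did. Wild-type term-diff also overlapped Cd69-deficient stem-like, whose first library, at 16570 FPKM, lay below the first wild-type term-diff library, at 16800 FPKM. Group means were 18920 ± 2054 FPKM (SD, n = 2) in wild-type stem-like, 14930 ± 2640 in wild-type term-diff, 17920 ± 1904 in Cd69-deficient stem-like and 20020 ± 895 in Cd69-deficient term-diff. Because small RNA rows held most of the summed FPKM, the share of the remainder was also taken. It was 15.7 and 14.1% in wild-type stem-like, and 12.5 and 10.5% in wild-type term-diff, and in Cd69-deficient cells 13.2 and 14.4% in stem-like against 13.4 and 15% in term-diff. On this scale too wild-type term-diff was lowest, and the other 3 groups overlapped.

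**Figure D1:**
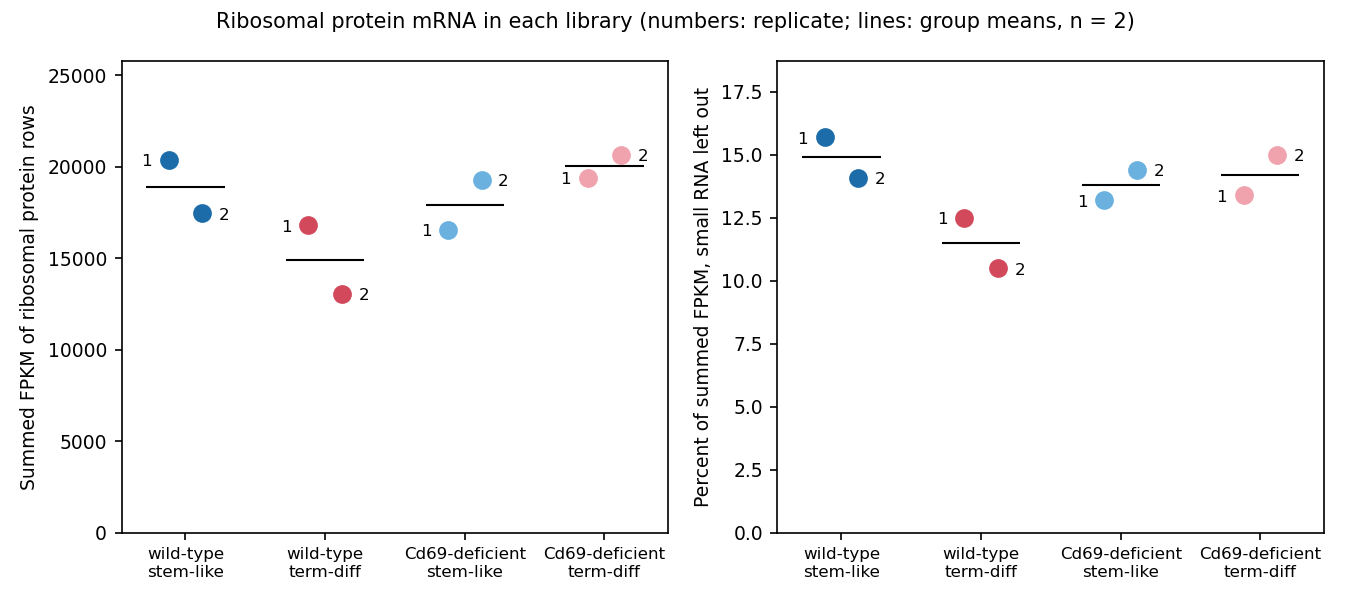
Summed FPKM of the ribosomal protein rows (left) and their share of the summed FPKM with small RNA rows left out (right, percent) in each library; points are libraries with their replicate number and lines are means of 2 libraries. The wild-type term-diff libraries, at 16800 and 13060 FPKM, are lower than the wild-type stem-like ones, and Cd69-deficient term-diff libraries, at 19390 and 20650 FPKM, are not.

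Single members largely shared the order of the libraries. The second wild-type term-diff library held the lowest value of 71 of the 82 members, and the first wild-type stem-like library the highest value of 30. The second Cd69-deficient term-diff library held the highest value of another 25. Replicates also differed across the whole set: 79 of 82 members were higher in the first wild-type term-diff library than in the second, where 41.4% of all genes were, with a median ratio of 1.24 for members and 0.963 for all genes. In Cd69-deficient stem-like cells only 8 members were higher in the first library, with a median ratio of 0.846. The median standard error of a difference between 2 groups was 0.22 for members and 0.16 for all genes on the log2 scale, so members were measured with a wider spread between replicates than the typical gene.

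**Figure D2:**
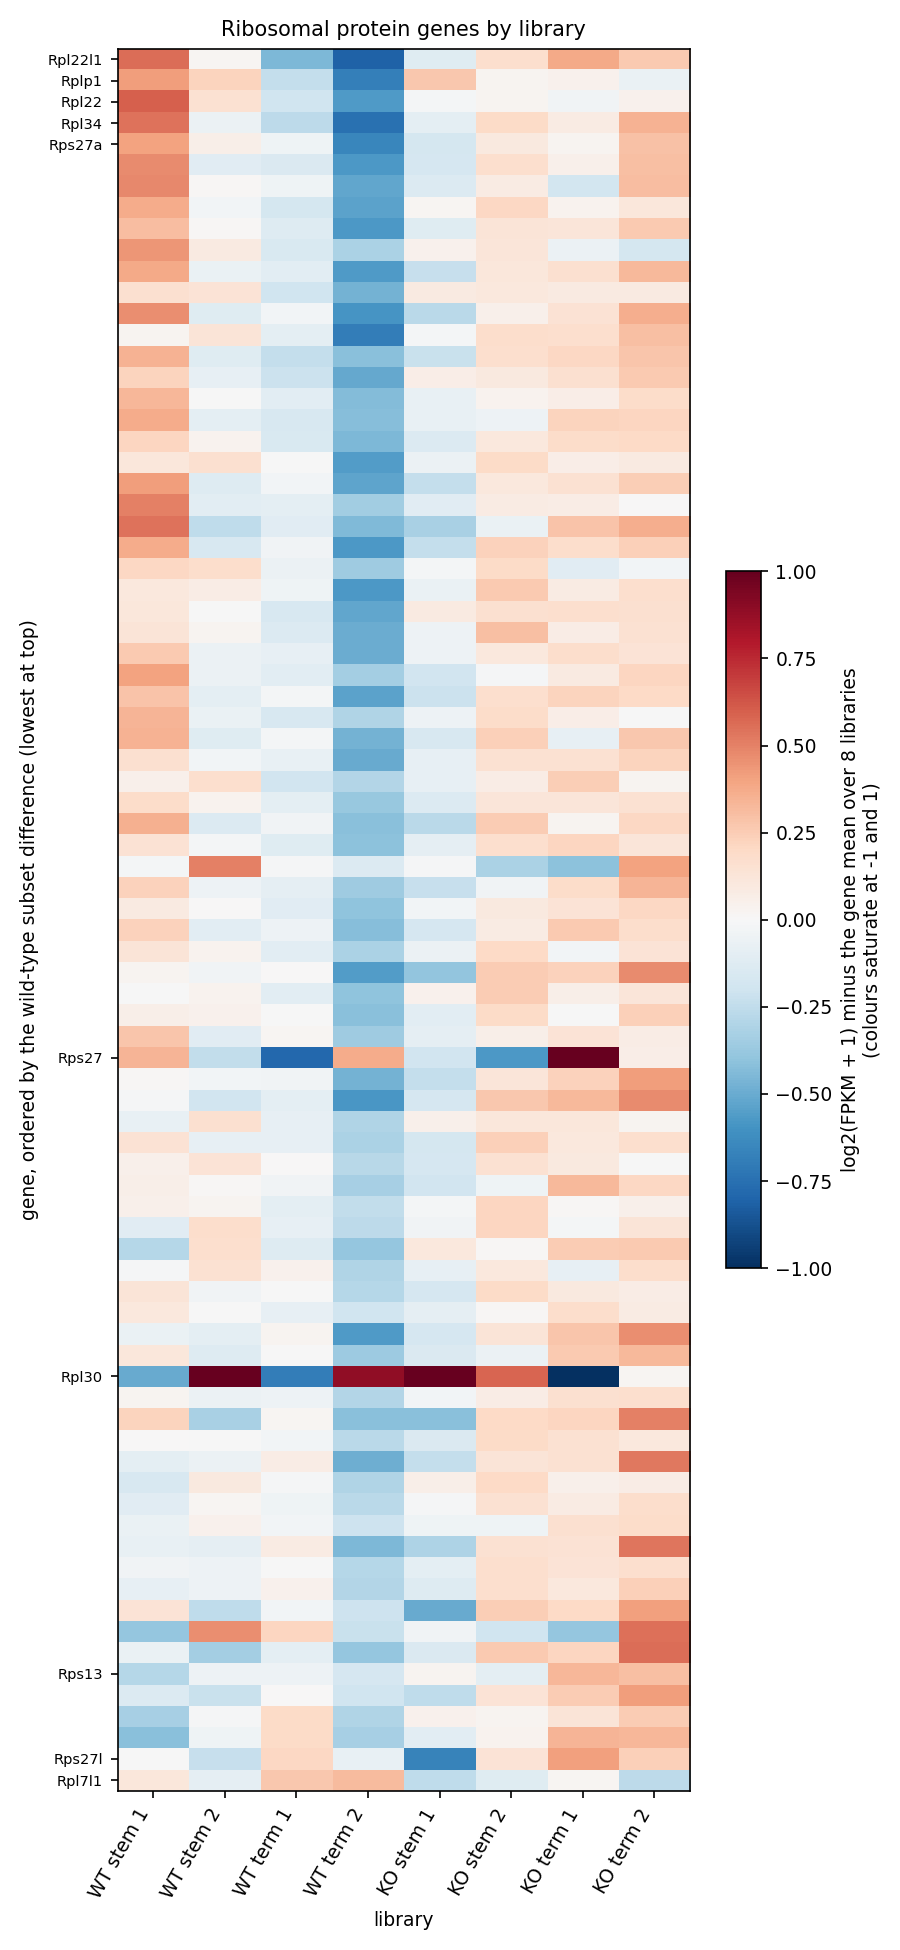
Each of the 82 genes by library, as log2(FPKM + 1) minus the gene's mean over the 8 libraries, ordered by the wild-type subset difference, with 10 genes of the text labelled; KO stands for Cd69-deficient, stem for stem-like and term for term-diff, and colours saturate at -1 and 1. The column of the second wild-type term-diff library holds the lowest value of 71 genes, while Rpl30, Rps27 and Rpl7l1 do not follow the other rows.

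The first comparison asked how ribosomal protein mRNA differed between subsets of wild-type tumour-specific cells. Rpl22 and Rpl22l1, a pair of paralogs of the large subunit, fell from stem-like to term-diff cells. Nearly all other members had lower means in term-diff cells without passing the test. Differences here and below are on the log2(FPKM + 1) scale ± standard error, tested with limma on all 9782 genes at a Benjamini-Hochberg adjusted p under 0.05, 2-sided. Of the 82 members, 2 (2.44%) fell and 0 rose, where 5.83% of all genes tested fell and 7.24% rose (13.1% in either direction). At an unadjusted p under 0.05, 9 members (11%) were lower and 0 higher, against 10.9% and 17.1% of all genes. The median difference of members was -0.30 (a ratio of 0.812), against 0.06 for all genes. The difference was below 0 for 76 of 82 members, and for 42.5% of all genes. Both term-diff libraries lay below both stem-like libraries for 42 members (51.2%, against 21.8% of all genes) and above them for 1 member (1.22%, against 33.4%). In bulk samples, fewer cells of a type and less RNA per cell cannot be told apart.

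Rpl22 is an RNA-binding protein of the large subunit that is needed for the development of αβ T cells, and Rpl22l1 is its paralog, which can replace it on the ribosome. Rpl22 was at 144 and 106 FPKM in wild-type stem-like and at 82.4 and 63.9 in wild-type term-diff cells. In Cd69-deficient cells it was at 93.4 and 96.6 FPKM in stem-like and at 92.6 and 98.0 in term-diff. The wild-type stem-like libraries were the highest and the wild-type term-diff libraries the lowest of the 8, and the Cd69-deficient libraries lay between them in a narrow band. The wild-type subset difference of Rpl22 was -0.76 ± 0.19 (limma, adjusted p = 0.038). The Rpl22 locus in the deposited tables is chr4:152325877-152334071.

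Rpl22l1, at chr3:28805510-28807415, was at 23.7 and 16.0 FPKM in wild-type stem-like and at 11.3 and 8.57 in wild-type term-diff cells. In Cd69-deficient cells it was at 14.4 and 17.8 FPKM in stem-like and at 20.8 and 19.1 in term-diff. The wild-type term-diff libraries were again the lowest, while both Cd69-deficient term-diff libraries lay above both Cd69-deficient stem-like ones. Its wild-type subset difference was -0.92 ± 0.20 (limma, adjusted p = 0.0233), from 20.7 to 55.4 implied fragments per library. Both calls ended without the first wild-type stem-like library (adjusted p = 0.175 for Rpl22 and 0.115 for Rpl22l1) and without the second wild-type term-diff library (0.189 and 0.132), and the Rpl22 call alone ended without any 1 Cd69-deficient library (0.0641 to 0.0646). They also ended with no filter on low values (0.101 and 0.0888) and with only the wild-type libraries in the fit (0.118 and 0.07).

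**Figure D3:**
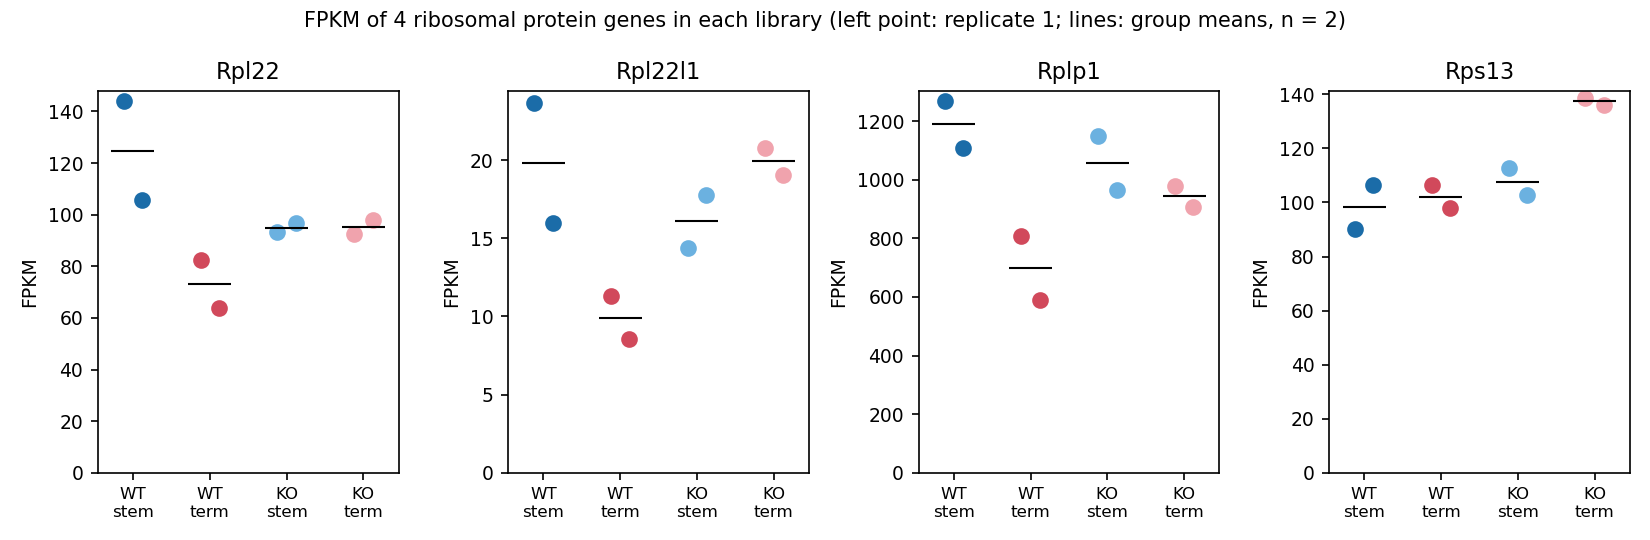
FPKM of Rpl22, Rpl22l1, Rplp1 and Rps13 in each library, the left point of each pair being replicate 1 and the line the mean of 2 libraries; WT is wild type and KO is Cd69-deficient. Rpl22 and Rpl22l1 are lowest in wild-type term-diff cells, and Rps13 is highest in Cd69-deficient term-diff cells, at 139 and 136 FPKM.

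Rplp1, Rpl34 and Rps27a completed the 5 lowest differences in wild type. Rplp1 of the stalk was at 1269 and 1109 FPKM in wild-type stem-like and at 807 and 591 in wild-type term-diff cells, and at 1148 and 966 then 979 and 908 FPKM in the Cd69-deficient subsets. The wild-type subsets did not overlap, but the difference, -0.78 ± 0.33, had an adjusted p of 0.163. Rpl34 was at 1010 and 665 FPKM in stem-like and 581 and 415 in term-diff wild-type cells (-0.74 ± 0.33, adjusted p = 0.193). Rps27a, which is made as a fusion with ubiquitin, was at 222 and 176 FPKM and at 164 and 107 FPKM (-0.58 ± 0.25, adjusted p = 0.174). In all 3 genes the second wild-type term-diff library was the lowest of the 8.

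At the other end, 6 members had a difference above 0 in wild type, where 57.4% of all genes had one, and 0 of the 6 passed the test (0 also at an unadjusted p under 0.05 and with limma-voom). Rpl7l1, a paralog of Rpl7 that acts in assembling the large subunit in the nucleolus, was at 6.89 and 5.86 FPKM in stem-like and at 7.81 and 8.10 in term-diff cells (0.28 ± 0.14, adjusted p = 0.227). It was the 1 member whose term-diff libraries both lay above both stem-like libraries. Rps27l, a p53-responsive paralog of Rps27, was at 0.19 ± 0.24, Rpl28 at 0.12 ± 0.22 and Rpl10, which joins the large subunit late in its maturation, at 0.08 ± 0.18. Rps13 of the small subunit was at 90.2 and 106 FPKM in stem-like and at 106 and 97.8 in term-diff (0.06 ± 0.15), and its libraries overlapped. The 2 subunits had similar medians, -0.29 for the 34 small subunit rows and -0.31 for the 48 large subunit rows.

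Without the second wild-type term-diff library, the median member difference in wild type was -0.14, with 62 of 82 members below 0. Without the first it was -0.46, with 78 below 0, and with both second wild-type libraries left out it was -0.22, with 63 below 0. An alternative test, limma-voom on the implied fragments, called 31 members lower and 0 higher, where it called 19.2% of all genes in either direction.

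The second comparison took the subsets of Cd69-deficient cells. Here most members had slightly higher means in term-diff than in stem-like cells, and none passed the test. limma called 0 of 82 members, where it called 9.45% of all genes tested. At an unadjusted p under 0.05, 2 members were higher, Rps16 and Rps27l, and 1 lower, Rpl30, against 10.5 and 14.2% of all genes. limma-voom on implied fragments called 5 higher (Rpl10, Rpl11, Rpl41, Rps13 and Rps16) and 1 lower (Rpl30), where it called 16.7% of all genes. The median difference was 0.15 for members and -0.03 for all genes, and 68 of 82 members were above 0, against 45.9% of all genes. For the 1271 genes with a mean of at least 20 FPKM the median was 0.13, near that of the members. Term-diff libraries lay above both stem-like libraries for 36 members (43.9%, against 24.5%) and below them for 3 members, Rpl5, Rpl13 and Rpl30 (3.66%, against 32.4%).

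Rps27, a zinc-binding protein of the small subunit, had the highest difference, 0.93 ± 0.42 (adjusted p = 0.22), from 13.7 and 10.3 FPKM in stem-like and 33.3 and 16.6 in term-diff cells. Rps27l was at 5.81 and 10.9 FPKM in stem-like and 13.4 and 11.8 in term-diff (0.59 ± 0.24, adjusted p = 0.181). In both rows the term-diff libraries lay above the stem-like ones, by a small margin between the nearest libraries of Rps27l. Another row covers the Rps27 locus, as described below. With that row added, the Rps27 term-diff libraries lay below the stem-like ones, at 368.5 and 354.7 against 378.2 and 396.6 FPKM (-0.10). Rps27l passed the test when the second Cd69-deficient stem-like library was left out (0.99, adjusted p = 0.0325). Rpl39, which lines the exit tunnel, differed by 0.52 ± 0.28, Rpl36al by 0.47 ± 0.28 and Rpl31, at the tunnel's mouth, by 0.43 ± 0.25.

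The lowest difference was that of Rpl30, -2.33 ± 0.89 (adjusted p = 0.151), a row described further below because another row covers its locus. Then came Rpl5, which with Rpl11 carries the 5S RNA into the ribosome and can bind Mdm2, at -0.20 ± 0.18. Rplp1 was at -0.16 ± 0.33, Rpl13 at -0.15 ± 0.19 and Rplp2, the partner of Rplp1 in the stalk, at -0.07 ± 0.26. Rpl5 was at 171 and 182 FPKM in stem-like and 160 and 147 in term-diff Cd69-deficient cells, so its libraries did not overlap, with a difference smaller than 2 standard errors. The median of the whole set turned to -0.13 (21 of 82 above 0) after quantile normalization, and with libraries rescaled to an equal sum without small RNA it was 0.03 (51 above 0), against -0.13 for all genes. It was 0.05 (50 above 0) without the first Cd69-deficient stem-like library and 0.25 (78 above 0) without the second.

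Between genotypes in stem-like cells the median member was close to 0. limma called 0 of 82 members, where it called 0.153% of all genes tested, and at an unadjusted p under 0.05 it gave 0 in either direction, against 4.74% of all genes higher and 2.51% lower. limma-voom called 0 as well, where it called 0.44% of all genes. The median difference, Cd69-deficient minus wild type, was -0.07 for members and 0.06 for all genes, with 55 of 82 members below 0 against 37.4% of all genes. Libraries did not overlap for 2 members that were higher, Rpl28 and Rps9 (2.44%, against 26.3%), and 4 that were lower, Rpl22, Rpl37, Rpl7l1 and Rps16 (4.88%, against 11.5%). The lowest differences were those of Rps27 (-0.43 ± 0.42, but -0.05 when summed with the row that overlaps it, described below), Rps19bp1 (-0.41 ± 0.27) and Rpl22 (-0.37 ± 0.19, adjusted p = 0.767). The highest were those of Rpl30 (0.73 ± 0.89, but -0.32 when summed in the same way), Rps29 of the small subunit (0.26 ± 0.23) and Rpl28 (0.21 ± 0.22). Leaving out the first wild-type stem-like library turned the median to 0.02, and leaving out the first Cd69-deficient stem-like library turned it to 0.06. It was -0.12 (58 of 82 below 0) without the second wild-type and -0.19 (71 below 0) without the second Cd69-deficient stem-like library, and -0.25 (79 below 0) after quantile normalization.

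Between genotypes in term-diff cells nearly every member had a higher mean in Cd69-deficient cells, and none passed the test. limma called 0 of 82 members, where it called 0.194% of all genes tested. At an unadjusted p under 0.05, 20 members (24.4%) were higher and 1 (1.22%) lower, against 6.26 and 8.88% of all genes. The median difference was 0.43 for members, a ratio of 1.34. It was -0.05 for all genes and 0.11 for the 1271 genes with a mean of at least 20 FPKM. The difference was above 0 for 80 of 82 members, against 42% of all genes, the 2 others being Rpl30 and Rpl7l1. Both Cd69-deficient libraries lay above both wild-type libraries for 69 members (84.1%, against 19.7% of all genes) and below them for 1 (1.22%, against 28.1%). The summed CD8 T cell markers did not overlap between these groups either, at 1006 to 1092 FPKM in wild-type and 1331 to 1503 in Cd69-deficient cells. Among them Cd2, Cd247, Cd3d, Cd3g and Cd8b1 were higher in Cd69-deficient cells without overlap, while Cd3e, Cd8a and Lck overlapped. Cd5 was lower, at 37.3 and 22.7 FPKM in wild-type and 18.8 and 13.3 in Cd69-deficient cells. The part of these markers in the members' values was not tested. Wild-type term-diff libraries also enter the wild-type subset comparison, so the 2 sets of differences are not independent.

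Rpl22l1 had the highest difference, from 11.3 and 8.57 FPKM in wild-type to 20.8 and 19.1 in Cd69-deficient term-diff cells (0.95 ± 0.20, adjusted p = 0.145). The 2 genotypes did not overlap, and a robust fit gave an adjusted p of 0.0499. Rps27 followed, at 8.75 and 20.8 against 33.3 and 16.6 FPKM (0.75 ± 0.42, adjusted p = 0.421, and 0.43 when summed with its overlapping row), with overlapping libraries. Rps21 of the small subunit was at 201 and 144 FPKM in wild-type and 270 and 299 in Cd69-deficient cells (0.74 ± 0.24, adjusted p = 0.251), without overlap.

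Rpl7l1 went the other way, from 7.81 and 8.10 FPKM in wild-type to 6.39 and 5.09 in Cd69-deficient term-diff cells (-0.42 ± 0.14, adjusted p = 0.262), and was the member whose Cd69-deficient libraries both lay below both wild-type ones. Rps19bp1 was at 0.07 ± 0.27, the lowest difference above 0. Rps13 showed the higher level in Cd69-deficient term-diff cells most evenly, at 106 and 97.8 FPKM in wild-type and 139 and 136 in Cd69-deficient cells (0.43 ± 0.15, adjusted p = 0.275). Rps6, the substrate of the S6 kinases, which was chosen after its values were seen, was at 195 and 161 against 215 and 220 FPKM (0.30 ± 0.19, adjusted p = 0.474).

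The size of the shift between genotypes in term-diff cells rested in part on 1 library and on the scaling. Without the second wild-type term-diff library the median was 0.23, with 77 of 82 members above 0. Rescaling to an equal sum without small RNA gave 0.30 (78 above 0) and moved the median of all genes to -0.15, and quantile normalization turned the median to -0.05 (35 above 0). limma-voom on the implied fragments called 17 members higher and 0 lower, Rps13, Rps21, Rps4x and Rpl11 among them, where it called 3.48% of all genes in either direction.

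**Figure D4:**
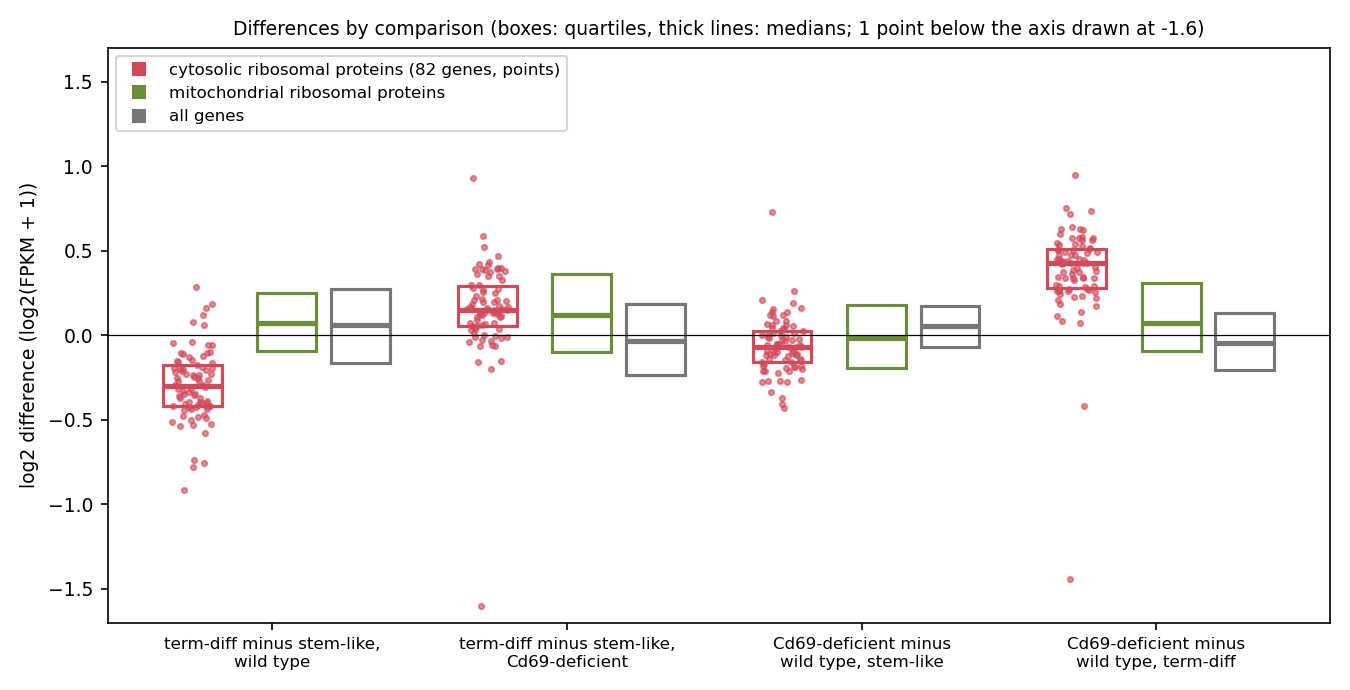
log2 differences of the 82 ribosomal protein genes (points, with a box of quartiles and median), beside boxes for 74 mitochondrial ribosomal protein genes and all 9782 genes, in 4 comparisons. The members' medians are -0.30, 0.15, -0.07 and 0.43 from left to right, against 0.06, -0.03, 0.06 and -0.05 for all genes.

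The difference between those genotype effects, the interaction, was also tested. limma called 0 of 82 members, where it called 0.0307% of all genes tested, and limma-voom called 0 members and 0 of all genes. At an unadjusted p under 0.05, 8 members (9.76%) were above 0 and 0 below, against 2.73% and 6.36% of all genes. The median was 0.48 for members and -0.10 for all genes, and 80 of 82 members were above 0, against 36.9%. The median of members was 0.29 (77 above 0) without the second wild-type term-diff library and 0.18 (63 above 0) after quantile normalization. Rpl22l1 had the highest value, 1.21 ± 0.29 (adjusted p = 0.539), and Rpl22 was at 0.76 ± 0.27 (adjusted p = 0.542), so a different effect of genotype in the 2 subsets was not shown for any single member. Averaged over subsets, limma and limma-voom each called 0 of 82 members, where limma called 0.542% and limma-voom 2.44% of all genes. At an unadjusted p under 0.05, 5 members were higher (Rpl22l1, Rpl27, Rps13, Rps21 and Rps29) and 1 lower (Rpl7l1), against 6.96 and 5.43% of all genes. The median of members was 0.18, with 77 of 82 above 0, against 50.4% of all genes, but it turned to -0.17 (17 above 0) after quantile normalization. It was 0.10 (69 above 0) with an equal sum without small RNA and 0.09 (68 above 0) without the second wild-type term-diff library. Without the second stem-like library of wild type it was 0.12, and without that of Cd69-deficient cells 0.11. The highest averages were those of Rps29 (0.45 ± 0.16), Rps21 (0.44 ± 0.17) and Rpl32 (0.35 ± 0.18), and the lowest were those of Rpl30 (-0.36 ± 0.63, but 0.17 when summed with its overlapping row), Rpl7l1 (-0.31 ± 0.10) and Rps19bp1 (-0.17 ± 0.19).

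The paralogs could be set beside their parent genes because FPKM is scaled by length. Rpl22l1 stood at 16.4 and 15.1% of Rpl22 in wild-type stem-like, and 13.7 and 13.4% in wild-type term-diff cells. In Cd69-deficient cells it stood at 15.4 and 18.4% in stem-like against 22.4 and 19.5% in term-diff. The share was thus lowest in wild-type term-diff and highest in Cd69-deficient term-diff libraries, without overlap with other groups. Rpl36al was at 89.7 to 150% of Rpl36a, with a mean over the 8 libraries of 128 against 112 FPKM. Rpl7l1 was at 1.2 to 3.36% of Rpl7, highest in the wild-type term-diff libraries at 2.23 and 3.36%. Rps4y2 was at most 0.377% of Rps4x. Rps27l was at 40.1 to 131% of the Rps27 row, a ratio that rests on the low values of that row. Most of the signal at the Rps27 locus lay in an overlapping row, Gm9846, at 206 to 438 FPKM. The ratio therefore does not set Rps27l beside the level of its parent mRNA.

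A few members shared their locus with a gene model known only by a Gm number, and their rows held little of the signal there. Rpl26, of the large subunit, was listed at 0.000998 FPKM or less in every library, while Gm15772, whose row spans nearly the same bases (chr11:68901588-68904534), was at 643 and 444 FPKM in wild-type stem-like and 312 and 288 in wild-type term-diff. In Cd69-deficient cells that row was at 382 and 449 FPKM in stem-like and 407 and 436 in term-diff. The levels of Gm15772 followed the order of most members, with wild-type term-diff lowest. Rpl30 was at 0.00347 to 16.2 FPKM, beside Gm12191 (chr15:34440505-34443233) at 48.3 to 124 FPKM. Rps27 was at 8.75 to 33.3 FPKM, beside Gm9846 (chr3:90212666-90213647) at 206 to 438 FPKM.

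When each pair of rows was summed, a choice made after seeing the data, the Cd69-deficient subset difference of Rpl30 moved from -2.33 to 0.39 and its term-diff genotype difference from -1.44 to 0.66. That of Rps27 in Cd69-deficient subsets moved from 0.93 to -0.10. Summed, the wild-type subset difference was -0.83 for Rpl26 (limma, adjusted p = 0.0699), -0.58 for Rpl30 and -0.59 for Rps27. The single rows of Rpl30 and Rps27 therefore do not give the level of these mRNAs.

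**Figure D5:**
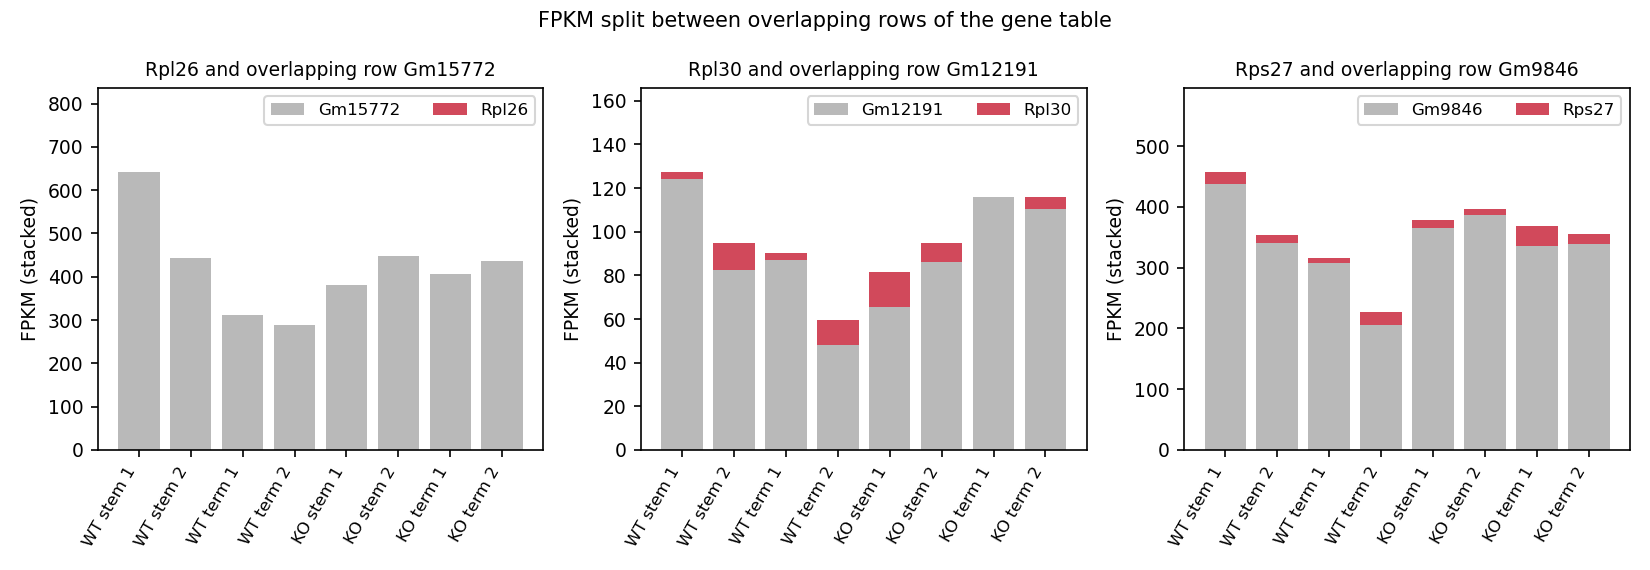
FPKM of the Rpl26, Rpl30 and Rps27 rows (red) stacked on the row of the gene model that overlaps each (grey), by library, with KO for Cd69-deficient. The named rows hold a small part of each stack, and the stacks are lowest in the second wild-type term-diff library.

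Many ribosomal protein genes carry snoRNAs, guides of rRNA modification, in their introns. Of the 82 members, 22 (26.8%) held at least 1 snoRNA row inside their locus, against 76 of 9638 genes (0.789%) that passed the filter. Rpl13a held 4 of them, and one of these reached 43700 FPKM. The host genes did not stand apart by their median difference: it was -0.31 for the 22 hosts and -0.30 for the 60 others between wild-type subsets, and 0.39 and 0.43 between genotypes in term-diff cells. Members were spread over the genome, with 14 on chromosome 7 and 4 on the X chromosome.

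Fau and Gnb2l1, which encode ribosomal proteins outside the name rule, were read in the same way. Fau, made as a fusion of a ubiquitin-like protein with a small subunit protein, was at 291 and 214 FPKM in wild-type and 364 and 409 in Cd69-deficient term-diff cells (0.63 ± 0.24, adjusted p = 0.298). Gnb2l1, the scaffold protein Rack1 on the small subunit, differed by 0.30 ± 0.19 (adjusted p = 0.474). Both were thus above 0 between genotypes in term-diff cells, and neither passed the test. Between wild-type subsets Gnb2l1 was at -0.30 and Fau at -0.09. Of 6 rows named as ribosomal protein pseudogenes 5 passed the filter, and all 5 were below 0 between wild-type subsets (median -0.25) and above 0 between genotypes in term-diff cells (median 0.52). limma called 0 of 5 in both, where it called 13.1 and 0.194% of all genes. At an unadjusted p under 0.05 there were 1 lower and 2 higher, in that order, against 10.9 and 6.26% of all genes. limma-voom called 0 and 1, where it called 19.2 and 3.48% of all genes.

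The proteins of the mitochondrial ribosome, encoded in the nucleus by another set of genes, differed from the cytosolic set in some comparisons only. Of 74 that passed the filter, 1 rose and 1 fell between wild-type subsets (1.35% each, against 7.24 and 5.83% of all genes), with a median of 0.07. Mrps18b rose (0.52 ± 0.12, adjusted p = 0.0229) and Mrps6 fell (-0.63 ± 0.15, adjusted p = 0.0324). Between Cd69-deficient subsets 4 rose (5.41%, against 3.88% of all genes) and 0 fell (against 5.56%). The 4 were Mrps36 (1.19), Mrpl20 (0.78), Mrpl43 (0.56) and Mrpl18 (0.49). The mitochondrial median there was 0.12, near the 0.15 of the cytosolic set, with 63.5% against 82.9% above 0. Between genotypes in term-diff cells the mitochondrial median was 0.07, against 0.43 for the cytosolic set. limma and limma-voom called 0 of 74 there, where limma called 0.194% and limma-voom 3.48% of all genes. At an unadjusted p under 0.05, 9 were higher and 3 lower, against 6.26 and 8.88% of all genes.

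Genes that build ribosomes, from a list of 42 with 41 passing the filter, lay on the other side of 0 from the ribosomal proteins. Between wild-type subsets 34 of 41 were above 0, with a median of 0.20, where 57.4% of all genes were above 0. A share near that of all genes rose, 3 of 41 against 7.24%: Noc2l, a nucleolar assembly factor (0.77 ± 0.13, adjusted p = 0.0072), Bop1, which processes large subunit rRNA (0.53 ± 0.13, adjusted p = 0.0298), and Nop56, a core protein of box C/D snoRNPs (0.44 ± 0.11, adjusted p = 0.0301). Noc2l was at 13.4 and 14.6 FPKM in wild-type stem-like and 24.1 and 25 in wild-type term-diff cells, without overlap. Between genotypes in term-diff cells 4 of 41 were above 0, against 42% of all genes, with a median of -0.26. limma called 0 there, where it called 0.194% of all genes. At an unadjusted p under 0.05, 1 was higher and 13 lower, against 6.26 and 8.88% of all genes. limma-voom called 3 lower, where it called 3.48% of all genes in either direction. The list's median deviation from the mean over libraries was highest in the wild-type term-diff libraries, at 0.13 and 0.21, where that of the ribosomal proteins was lowest, at -0.07 and -0.40.

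Of 6 elongation factors limma called 0 between wild-type subsets, where it called 13.1% of all genes. At an unadjusted p under 0.05, 1 was higher and 1 lower, against 17.1 and 10.9% of all genes. limma-voom called 1 lower, where it called 19.2% of all genes in either direction. Eef1a1, which brings aminoacyl-tRNA to the ribosome, was at 1004 to 1348 FPKM with a wild-type subset difference of 0.06 ± 0.34. Of 34 initiation factors that passed the filter, 1 rose between wild-type subsets and 0 fell, against 7.24 and 5.83% of all genes. It was Eif4h, a partner of the helicase Eif4a (0.43 ± 0.11, limma, adjusted p = 0.0343). The next list held 16 other mRNAs known for a terminal oligopyrimidine tract, some of them translation factors. limma called 1 of them in each subset comparison, where it called 13.1 and 9.45% of all genes. It was Vim, an intermediate filament protein, which rose between wild-type subsets (1.18 ± 0.15, adjusted p = 0.00222) and Cd69-deficient subsets (0.96 ± 0.15, adjusted p = 0.00721). Tpt1 of the same list, the translationally controlled tumour protein, was at 907 and 677 FPKM in wild-type stem-like and 645 and 491 in wild-type term-diff (-0.48 ± 0.31, adjusted p = 0.361). The list's median was -0.09 between wild-type subsets and 0.21 between genotypes in term-diff cells.

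Of 18 regulators of ribosomal protein synthesis 1 rose between wild-type subsets and 0 fell, against 7.24 and 5.83% of all genes. It was Rps6ka1, a kinase of Rps6 (0.82 ± 0.15, limma, adjusted p = 0.00971). Myc, a transcription factor that drives ribosome production, was at 18.7 and 21.9 FPKM in wild-type stem-like and 23.4 and 33.5 in wild-type term-diff cells (0.45 ± 0.21, adjusted p = 0.203). In Cd69-deficient cells Myc was at 16.1 and 17.9 FPKM in stem-like and 15.1 and 21.3 in term-diff. The second wild-type term-diff library had the highest Myc level and the lowest level of most ribosomal proteins.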

How the data were processed

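RNA-seq of 8 libraries, 2 per group, was read from 1 gene table per library. The authors deposited FPKM, each with a lower and an upper confidence limit. Named in the submitters' processing notes are Cufflinks 2.2.1, TopHat 1.3.2, Bowtie2 2.3.4, bcl2fastq 2.20 and the build mm10. Per the labels' protocols, libraries were made with a SMARTer stranded total RNA kit and sequenced as single reads. The annotation, the strand setting and the handling of reads with several matches are not given in the sources used here.

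Values were used as log2(FPKM + 1), without further scaling, for rows that reached 1 FPKM in 2 or more libraries. Of all rows, 3 with a status other than OK were left out. A model of 4 group means was fitted to all 9782 rows (limma 3.58.1, R 4.3.3, moderated with a mean-variance trend; 4 residual and 4.2 prior degrees of freedom), with Benjamini-Hochberg adjustment over all rows and a threshold of 0.05. The fit was tested on simulated data. Implied fragments are the square of 2 times the FPKM over its distance to the upper limit; they are approximate and cover counting error only. In each library 69.4 to 70% of rows with under 15 of them lay within 0.05 of a whole number.

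Members and gene lists were chosen with earlier results of these data known. Named were members past the threshold, the 5 highest and 5 lowest differences in each subset comparison and the 3 and 3 in each genotype comparison, the 5 highest and 5 lowest mean levels, paralogs with their parents, and up to 4 genes of other lists; some of these were left out for length or are not reported here. Rps13, Rps6, Eef1a1, Tpt1, Myc, the genes listed beside small counts and those named from limma-voom fall outside this rule and were chosen after their values were seen. The alternatives tried varied the pseudocount, filter, scaling, fit, threshold and the libraries used.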

Additional observations from a re-analysis of the deposited data

How the results depend on the processing

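Under 27 alternatives no single member reversed a call. The count of 2 members called between wild-type subsets became 4 with median-of-ratios scaling (14.3% of all genes called), 10 after quantile normalization (14%), 4 without the trend (12.7%), 31 with limma-voom on implied fragments (19.2%), and 0 with no filter, with only the groups compared in the fit, and, both added after seeing the data, with both second wild-type libraries left out or libraries centred on the median member. Leaving out 1 library in turn gave 0 to 3. Between Cd69-deficient subsets the count of 0 became 6 with limma-voom, 1 (Rpl30) with libraries centred on the median member, and 0 to 1 when 1 library was left out. Between genotypes in term-diff cells it became 1 (Rpl22l1) with a robust fit and 17 with limma-voom. In the other 3 comparisons it was 0 under each alternative run. Why these counts moved was not tested. Centring on the median member took the shared shift away: medians were then -0.02 between wild-type subsets and 0.02 between genotypes in term-diff cells.

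The replicate number as a block gave 2 members between wild-type subsets and 0 in the other comparisons. Same-numbered libraries deviated from their group means with correlations of -0.297 to 0.152 over all genes and -0.608 to 0.557 over members. With 2 libraries per group, these values cannot show whether same-numbered libraries share a source. With 2 libraries per group, the fit rests on 4 residual degrees of freedom, and a lone library left in a group was assumed to vary like the others. Low depth limits the rows of Rpl30, listed near 0 in 1 library, and of Rps4y2, Rps27 and Rps27l, which had as few as 1, 11.3 and 13 implied fragments in a library.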
